A study of Mus musculus with 12 samples.

Results

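The annexins and their S100 partners are 10 genes, Anxa1 to Anxa6 and S100a4, S100a6, S100a10 and S100a11. They were chosen by name with earlier results of these data known, so the shares of all genes given beside their counts are no test. All 10 had a probe set with a single gene symbol among 19938 genes tested, and a gene with several was read from its brightest over the 12 arrays. RNA of whole kidneys from 3-week-old mice was read on 12 Affymetrix arrays in 4 groups of 3. The first group was PpargΔ/Δ mice, which the series calls null for PPARγ, the nuclear receptor that drives fat cell formation. Their controls, labelled only control, had the same mixed C57BL6/SV129 background. The AZIP mice, on the FVB background, are known as a transgenic line that lacks white fat, and were set against FVB control mice. Every array held RNA pooled from 3 mice, so that n counts pools, whose spread is smaller than that of single animals. The labels do not say how the Pparg deletion was made, what promoter drives the transgene or what sex the mice were. Fewer cells of a type and less RNA per cell cannot be told apart in whole-kidney RNA.

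Annexins are calcium-dependent proteins that bind acidic phospholipids on the inner face of membranes, where they organise membrane domains, exocytosis and the sealing of tears. S100 proteins are small calcium-binding dimers with EF-hand loops, and several of them dock onto the N-terminal tail of 1 annexin. S100a10 (p11) holds annexin A2 in a tetramer at the plasma membrane, and S100a11 does the same with annexin A1. In the kidney these proteins are known from tubular epithelium, collecting duct, interstitial cells and leukocytes, and their mRNAs are known to rise in injured tubules.

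All 10 members had a higher mean in PpargΔ/Δ than in control kidneys, as did 46.8% of all genes, and all 10 in AZIP than in FVB control kidneys, as did 51.1% of all genes. In PpargΔ/Δ kidneys 5 passed the threshold (Anxa1, Anxa2, Anxa3, S100a6 and S100a11), which is an adjusted p under 0.05 by limma with Benjamini-Hochberg adjustment over all genes tested. Of all genes 2.67% were called higher in that comparison. In AZIP kidneys 3 passed (Anxa1, Anxa2 and Anxa3), where 1.30% of all genes were called higher. The 3 genes were called in both lines, as were 0.717% of all genes in the upward direction. The median log2 difference of the members was 0.25 in PpargΔ/Δ and 0.18 in AZIP kidneys, against -0.01 and 0.00 over all genes. No member was called lower, where 2.62% of all genes were in PpargΔ/Δ and 1.13% in AZIP kidneys. The arrays of the 2 groups did not overlap, with the mutant higher, for 7 members in PpargΔ/Δ kidneys (12.9% of all genes) and 4 in AZIP kidneys (11%, or 2192 of the 19938 genes). The changes were modest, from 1.22-fold for S100a11 to 1.78-fold for S100a6 among those that passed in PpargΔ/Δ kidneys.

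The arrays themselves were close but not level. The median log2 value of an array was 7.17 to 7.21, and arrays of a group correlated at 0.996 to 0.998 across genes. Medians were slightly higher in both mutant lines, without overlap. They were 7.199 to 7.207 in PpargΔ/Δ against 7.180 to 7.186 in control kidneys, and 7.187 to 7.206 in AZIP against 7.171 to 7.182 in FVB control kidneys. With the arrays shifted to the same median, 5 members passed in PpargΔ/Δ and 3 in AZIP kidneys. The Pparg probe set averaged 8.07 in PpargΔ/Δ against 7.96 in control kidneys (limma adjusted p = 0.339), and which part of the gene it covers was not checked, so the genotype rests on the labels. Of 8 kidney markers 7 were measured, and their mean level lay between 11.89 and 12.00 in all arrays. It was 11.97 to 12.00 in PpargΔ/Δ and 11.89 to 11.96 in control kidneys, without overlap. In AZIP kidneys it was 11.90 to 11.94, which overlapped the 11.89 to 11.92 of FVB control kidneys. Of the 7, the water channel gene Aqp2 was called higher in PpargΔ/Δ than in control kidneys (0.48, limma adjusted p = 0.0220), a call lost without PpargΔ/Δ replicate 2 or 3 or control replicate 1 or 3. The podocyte gene Nphs1 was called higher in FVB than in mixed control kidneys (0.23, limma adjusted p = 0.0149), a call lost without FVB control replicate 1 or 2 or mixed control replicate 2. Log2 array values have no true 0, so that absence of a transcript cannot be read from them. All 10 members lay above percentile 25 of mean level.

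**Figure D1:**
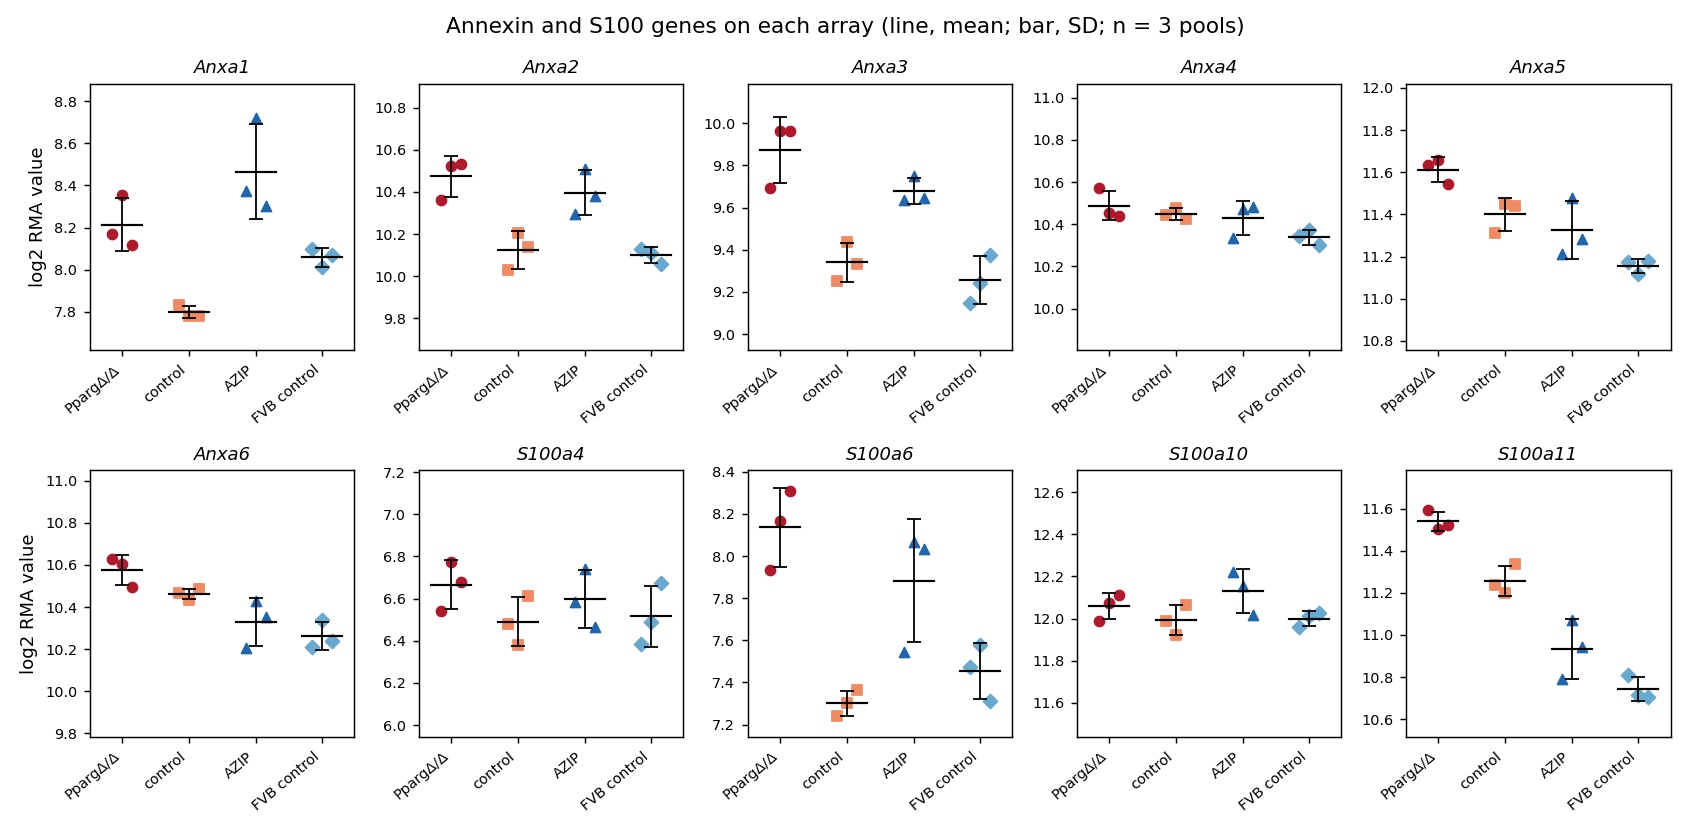
Log2 RMA values (y axis) of the 10 members on each of the 12 arrays by group (x axis), with the mean as a line and the SD as a bar (n = 3 pools), every panel spanning the same log2 range. The 3 PpargΔ/Δ arrays lie above all 3 control arrays in 7 panels, and the 3 AZIP arrays above all 3 FVB control arrays in 4.

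Anxa2 and Anxa1, the annexins named above as partners of S100a10 and S100a11, were higher in both mutant lines. Annexin A2 binds the plasma membrane with S100a10 and offers a docking site for tissue plasminogen activator and plasminogen. Anxa2 read 10.36, 10.52 and 10.53 on the PpargΔ/Δ arrays, against 10.03, 10.21 and 10.14 on the control arrays. It read 10.30, 10.51 and 10.38 on the AZIP arrays, against 10.13, 10.11 and 10.06 on the FVB control arrays. Neither mutant group overlapped its control, while the 2 control groups overlapped each other. The difference was 0.35 ± 0.07 in PpargΔ/Δ (SE, limma adjusted p = 0.0165) and 0.30 ± 0.07 in AZIP kidneys (limma adjusted p = 0.0474).

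Annexin A1 is a glucocorticoid-induced protein that acts through formyl peptide receptors to restrain neutrophil entry. Anxa1 read 8.17, 8.36 and 8.12 in PpargΔ/Δ kidneys, against 7.83, 7.78 and 7.78 in control kidneys. It read 8.37, 8.72 and 8.30 in AZIP kidneys, against 8.10, 8.01 and 8.07 in FVB control kidneys. The mutant arrays lay above their own controls in both lines. The differences were nearly equal, at 0.42 ± 0.10 in PpargΔ/Δ (SE, limma adjusted p = 0.0307) and 0.41 ± 0.10 in AZIP kidneys (limma adjusted p = 0.0499985, just under the threshold). AZIP replicate 2 stood highest, and without it the AZIP difference was 0.28.

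Anxa3, an annexin known from neutrophil granules, had the largest annexin difference in both lines. It read 9.69, 9.96 and 9.96 in PpargΔ/Δ kidneys, against 9.25, 9.44 and 9.33 in control kidneys. In AZIP kidneys it read 9.64, 9.75 and 9.65, against 9.15, 9.24 and 9.37 in FVB control kidneys. Both pairs of groups were separate. It rose by 0.53 ± 0.08 in PpargΔ/Δ (SE, 1.45-fold, limma adjusted p = 0.00551) and by 0.42 ± 0.08 in AZIP kidneys (1.34-fold, limma adjusted p = 0.0266).

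Anxa4, Anxa5 and Anxa6 did not pass in either comparison. Annexin A5 binds phosphatidylserine and is the common stain for dying cells. Anxa5 read 11.63, 11.66 and 11.54 in PpargΔ/Δ kidneys, against 11.31, 11.45 and 11.44 in control kidneys, and the difference of 0.21 ± 0.07 missed the threshold (SE, limma adjusted p = 0.0994). In AZIP kidneys it read 11.21, 11.48 and 11.28, against 11.17, 11.12 and 11.18 in FVB control kidneys, a difference of 0.17 ± 0.07 (SE, limma adjusted p = 0.246). The groups did not overlap in either line although neither difference passed. Annexin A6, which carries a duplicated annexin core and binds cholesterol-rich membranes, averaged 10.57 ± 0.07 in PpargΔ/Δ and 10.46 ± 0.03 in control kidneys (SD, n = 3 each). Anxa6 averaged 10.33 ± 0.11 in AZIP and 10.26 ± 0.07 in FVB control kidneys (SD, n = 3 each). Annexin A4 forms arrays on membranes of polarised epithelia. Anxa4 averaged 10.49 ± 0.07 in PpargΔ/Δ and 10.45 ± 0.03 in control kidneys, and 10.43 ± 0.08 in AZIP and 10.34 ± 0.04 in FVB control kidneys (SD, n = 3 each). Its difference was 0.04, with a 95% interval of -0.08 to 0.16, in PpargΔ/Δ kidneys, and 0.09, from -0.03 to 0.21, in AZIP kidneys. These intervals leave out differences as large as that of Anxa3.

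Among the S100 genes S100a6 had the largest difference of all members. S100a6 (calcyclin) was first known from dividing cells and binds several annexins and the calcyclin-binding protein Cacybp. It read 7.93, 8.17 and 8.31 in PpargΔ/Δ kidneys, against 7.24, 7.30 and 7.36 in control kidneys, with no overlap. The rise was 0.83 ± 0.13 (SE, 1.78-fold, limma adjusted p = 0.00574). In AZIP kidneys S100a6 read 7.55, 8.07 and 8.04, against 7.47, 7.58 and 7.31 in FVB control kidneys. AZIP replicate 1 lay among the FVB controls while the other 2 lay above them, and the difference of 0.43 ± 0.13 did not pass (SE, limma adjusted p = 0.118).

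S100a11, the partner of annexin A1, read 11.59, 11.50 and 11.52 in PpargΔ/Δ kidneys, against 11.24, 11.20 and 11.34 in control kidneys. The groups were separate and the difference was 0.28 ± 0.07 (SE, limma adjusted p = 0.0400). In AZIP kidneys it read 10.79, 11.07 and 10.94, against 10.81, 10.72 and 10.71 in FVB control kidneys, a difference of 0.19 ± 0.07 that did not pass (SE, limma adjusted p = 0.187). S100a11 had a second probe set, which differed from the one used by at most 0.05 on any array. RefSeq lists a pseudogene of S100a11, so its values are uncertain: whether either probe set reads that copy was not tested. The second probe set of Anxa6 read 3.01 to 3.55 lower than the one used and differed by -0.01 in PpargΔ/Δ and 0.02 in AZIP kidneys.

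S100a10 and S100a4 did not pass. S100a10 no longer binds calcium and is held in the shape that docks annexin A2. It read 11.99, 12.07 and 12.11 in PpargΔ/Δ kidneys, against 11.99, 11.92 and 12.06 in control kidneys, a difference of 0.07 ± 0.06 (SE, limma adjusted p = 0.597). It read 12.22, 12.16 and 12.02 in AZIP kidneys, against 11.96, 12.01 and 12.02 in FVB control kidneys, a difference of 0.13 ± 0.06 (SE, limma adjusted p = 0.308). The groups overlapped in both lines. S100a4, known as fibroblast-specific protein and as a ligand of non-muscle myosin, averaged 6.67 ± 0.12 in PpargΔ/Δ and 6.49 ± 0.12 in control kidneys (SD, n = 3 each). S100a4 averaged 6.60 ± 0.14 in AZIP and 6.52 ± 0.15 in FVB control kidneys, again with overlap (SD, n = 3 each).

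**Figure D2:**
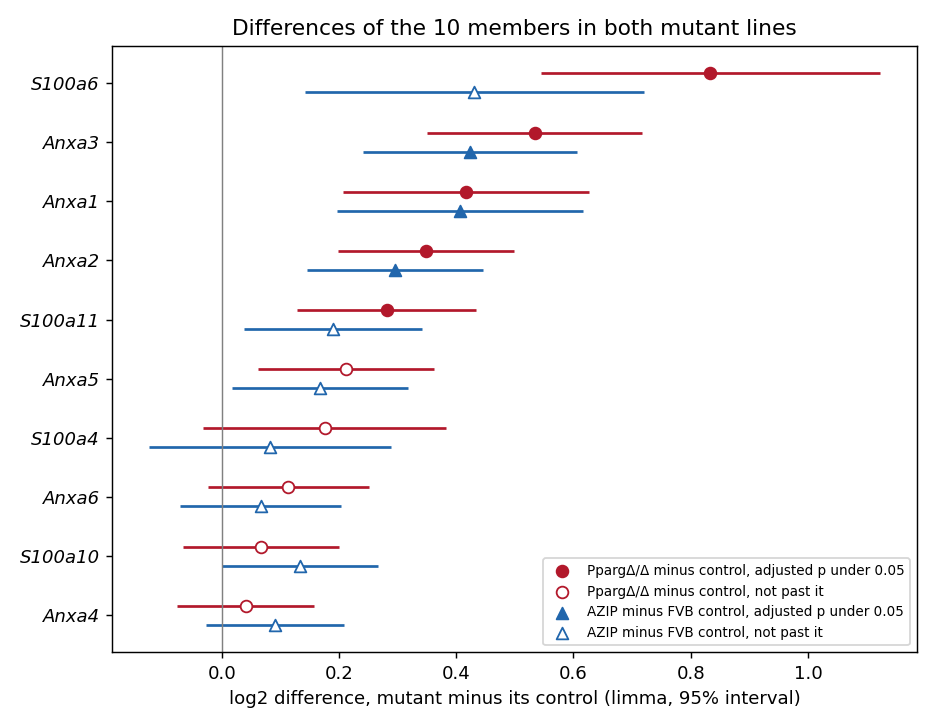
Log2 difference of each member (x axis, limma, with the 95% interval as a line) in PpargΔ/Δ minus control (circles) and AZIP minus FVB control kidneys (triangles), filled where the adjusted p is under 0.05. All 20 points lie above 0, 8 of them filled, and the intervals of the 2 lines overlap for every gene.

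Anxa2 passed in both lines and its partner S100a10 in neither, so the pair was compared within each array. The log2 value of S100a10 minus that of Anxa2 was 1.63, 1.55 and 1.58 on the PpargΔ/Δ arrays, against 1.96, 1.72 and 1.93 on the control arrays. These groups did not overlap, and the difference was -0.28 (exact permutation test, two-sided, p = 0.10, the smallest that 3 against 3 arrays allow). On the AZIP arrays it was 1.92, 1.65 and 1.64, against 1.83, 1.90 and 1.97 on the FVB control arrays, which overlap (-0.16, exact permutation test, two-sided, p = 0.30). The offset itself reflects 2 probe sets and is no molar ratio. For S100a11 minus Anxa1 the difference was -0.14 in PpargΔ/Δ (exact permutation test, two-sided, p = 0.40) and -0.22 in AZIP kidneys, whose arrays did not overlap those of the FVB controls (p = 0.10, exact permutation test, two-sided). Over these 4 comparisons the Benjamini-Hochberg adjusted p of the exact permutation tests was 0.20 or 0.40, and none could pass the threshold at this size.

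**Figure D3:**
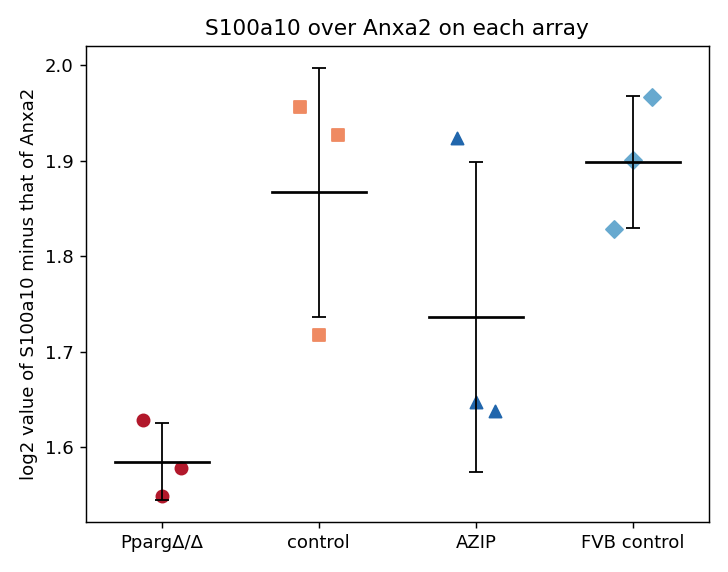
Log2 value of S100a10 minus that of Anxa2 (y axis) on each array by group (x axis), with the mean as a line and the SD as a bar (n = 3 pools). The PpargΔ/Δ arrays, at 1.55 to 1.63, lie below the 3 control arrays, at 1.72 to 1.96.

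The members' differences were compared between the lines directly. The PpargΔ/Δ difference minus the AZIP difference passed for 0 of the 10 members by limma, with 0 at an unadjusted p under 0.05. Of all genes 0.0201% passed and 5.82% had an unadjusted p under 0.05. For S100a6 it was 0.40 ± 0.19 (SE, 95% interval -0.01 to 0.81, limma adjusted p = 0.858). For Anxa1 it was 0.01 ± 0.14 (SE, 95% interval -0.29 to 0.31). S100a6 and S100a11 passed in PpargΔ/Δ and not in AZIP kidneys, but their difference between the lines did not pass.

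Between the 2 control groups S100a11 differed. S100a11 averaged 10.74 ± 0.06 in FVB control and 11.26 ± 0.07 in mixed control kidneys (SD, n = 3 each), a difference of -0.51 ± 0.07 (SE, limma adjusted p = 0.000935). It was the 1 member called between the control groups, where 3.72% of genes were called lower and 3.50% higher. All 3 AZIP arrays also lay below all 3 mixed control arrays, so that the order of means was PpargΔ/Δ, control, AZIP and FVB control, with overlap only between the last 2. Anxa4, Anxa5 and Anxa6 followed the same order of means. Anxa5 was -0.24 ± 0.07 in FVB against mixed controls (SE, limma adjusted p = 0.0553) and Anxa6 -0.20 ± 0.06 (SE, limma adjusted p = 0.0854). Anxa4 was at -0.11 ± 0.05 (SE, limma adjusted p = 0.293) and Anxa1 at 0.26 ± 0.10 (SE, limma adjusted p = 0.141). With S100a11, 4 members were lower and 1 higher without overlap between the controls. Over all genes 12.7% were lower and 15.8% higher without overlap. For Anxa2 and Anxa3 both mutant groups lay above both control groups, with overlap between the 2 mutant groups and between the 2 control groups. Strain and anything else that differs between the colonies cannot be told apart, and this comparison shares its control arrays with the other 2.

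Many calls were lost with 1 array left out, although no called difference changed sign. Over all genes the calls then numbered 330 to 1084 in PpargΔ/Δ and 62 to 569 in AZIP kidneys. A fit with 1 array fewer also has fewer residual degrees of freedom, and the part of this in the losses was not tested. Of the 5 PpargΔ/Δ calls, Anxa3 and S100a6 passed with each of the 6 arrays left out in turn. Anxa2 lost the threshold without PpargΔ/Δ replicate 2 or 3 or control replicate 1 (limma adjusted p up to 0.0725). Anxa1 lost it without any array but PpargΔ/Δ replicate 1 (limma adjusted p up to 0.107), and S100a11 without any 1 of the 6 (limma adjusted p up to 0.131). The number of members called was 2 without PpargΔ/Δ replicate 2 or 3 or control replicate 1, and 3 without control replicate 2 or 3. In the AZIP comparison it was 0 without AZIP replicate 2 or FVB control replicate 1 or 2, and 1 without AZIP replicate 3 or FVB control replicate 3. With only the AZIP and FVB arrays in the model Anxa3 alone of the members passed (limma adjusted p = 0.0484), as Anxa1 (limma adjusted p = 0.122) and Anxa2 (limma adjusted p = 0.0876) missed it. Anxa1 lost the AZIP call without any array but AZIP replicate 3 (limma adjusted p up to 0.153), and Anxa2 without any but AZIP replicate 1 (limma adjusted p up to 0.144). Without AZIP replicate 1 S100a6 passed, at 0.60 ± 0.10 (SE, limma adjusted p = 0.0165). Anxa3 lost the AZIP call without AZIP replicate 2 or 3 or FVB control replicate 1 or 2 (limma adjusted p up to 0.120). AZIP replicate 2 was the highest of its group for 8 of the 10 members and AZIP replicate 1 the lowest for 7.

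Of 6 further annexins 1 rose in PpargΔ/Δ and 0 in AZIP kidneys by limma (1 with an unadjusted p under 0.05), with medians of 0.06 and 0.03. The one called was Anxa8, an annexin of stratified epithelia, at 0.25 ± 0.06 in PpargΔ/Δ (SE, limma adjusted p = 0.0253) and 0.17 ± 0.06 in AZIP kidneys (SE, limma adjusted p = 0.129). Anxa8 lost the call without PpargΔ/Δ replicate 2 or 3 or control replicate 1 or 3 (limma adjusted p up to 0.0973), and with only the 2 groups in the model (limma adjusted p = 0.0764). Anxa11, a widely expressed annexin that tethers RNA granules to lysosomes, was at 0.06 and 0.08, and Anxa7 at -0.08 and -0.09, with no call. Of 12 further S100 genes 2 rose in PpargΔ/Δ kidneys and 1 in AZIP kidneys, with medians of 0.02 in each. S100a8 and S100a9, the subunits of the neutrophil protein calprotectin, rose by 0.74 ± 0.07 (SE, limma adjusted p = 0.000305) and 0.53 ± 0.11 (SE, limma adjusted p = 0.0185) in PpargΔ/Δ kidneys. They were at 0.10 and 0.00 in AZIP kidneys. S100a8 was dim, averaging 5.74 in PpargΔ/Δ and 4.99 in control kidneys, and the filter on genes under percentile 25 removed it. S100a9 lost its call without control replicate 1 (limma adjusted p = 0.0749) and with only the 2 groups in the model (limma adjusted p = 0.0777). For S100a8 the difference between the lines was 0.64 ± 0.09 (SE, limma adjusted p = 0.0615). S100g, the vitamin D-dependent calcium buffer calbindin-D9k of the distal tubule, rose by 0.25 ± 0.05 in AZIP kidneys (SE, limma adjusted p = 0.0401). S100g lost this without AZIP replicate 2 or 3 or any FVB control array (limma adjusted p up to 0.159), and with only the 2 groups or with equal medians (limma adjusted p = 0.117 and 0.0502).

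**Figure D4:**
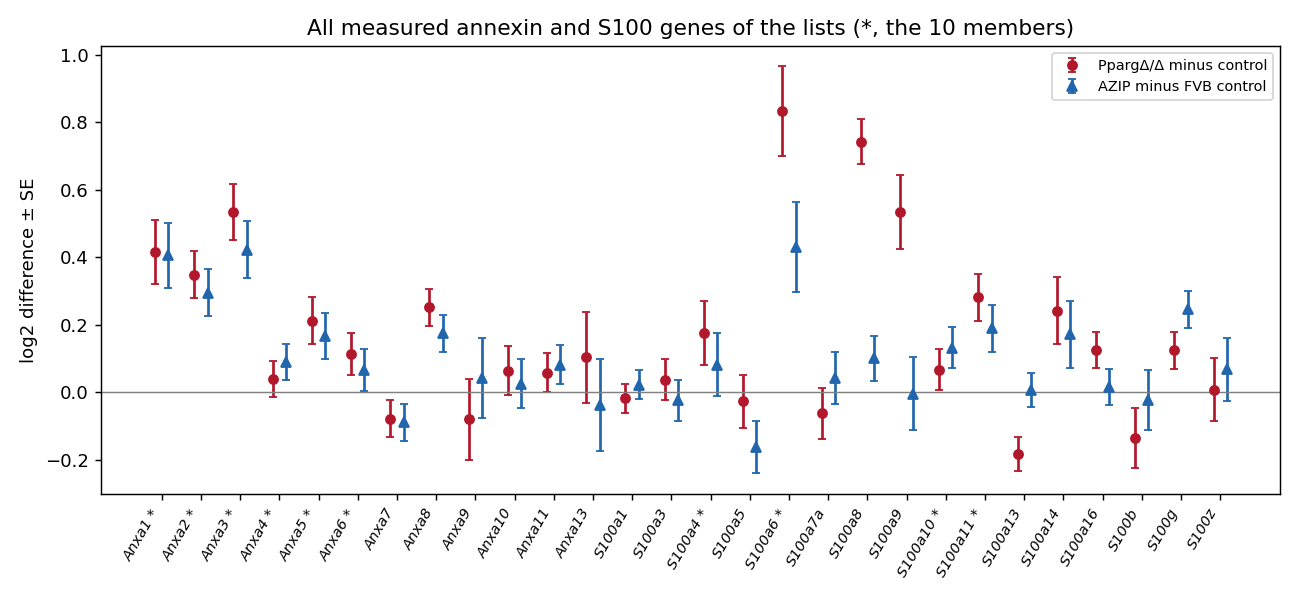
Log2 difference ± SE (y axis) of the 12 measured annexin and 16 measured S100 genes (x axis, members marked with a star) in PpargΔ/Δ minus control (circles) and AZIP minus FVB control kidneys (triangles). S100a6, S100a8, Anxa3 and S100a9 are highest in PpargΔ/Δ kidneys, while S100a8 and S100a9 lie at 0.10 and 0.00 in AZIP kidneys.

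Most S100 genes lie in a cluster on mouse chromosome 3, where 13 of the lists' genes were measured. In RefSeq order, the first 7, from S100a1 to S100a5, were not called in PpargΔ/Δ kidneys. The next 6 were S100a6, S100a7a, S100a8, S100a9, S100a11 and S100a10, with PpargΔ/Δ differences of 0.83, -0.06, 0.74, 0.53, 0.28 and 0.07. All of these passed except S100a7a and S100a10. In AZIP kidneys the same 6 had 0.43, 0.04, 0.10, 0.00, 0.19 and 0.13, none of them called.

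Of the 10 members 7 had an entry by symbol in the RefSeq promoter table for GRCm38.p6 (8 promoters, Anxa4 having 2), each 300 bases long, from 250 before the gene's start. Those of the 4 called members with an entry are shown because these genes rose together in PpargΔ/Δ kidneys, 5′ to 3′ on the gene's strand. Capitals mark matches, on either strand, to any of 8 motifs searched.
Anxa1, chr19:20390622-20390921, minus strand: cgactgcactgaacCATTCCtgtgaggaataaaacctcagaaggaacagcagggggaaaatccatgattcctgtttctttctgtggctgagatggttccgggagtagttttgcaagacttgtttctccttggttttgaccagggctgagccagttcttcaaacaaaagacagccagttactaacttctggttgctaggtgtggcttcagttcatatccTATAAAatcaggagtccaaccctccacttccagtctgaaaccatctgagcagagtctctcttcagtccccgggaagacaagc
Anxa2, chr9:69453433-69453732, plus strand: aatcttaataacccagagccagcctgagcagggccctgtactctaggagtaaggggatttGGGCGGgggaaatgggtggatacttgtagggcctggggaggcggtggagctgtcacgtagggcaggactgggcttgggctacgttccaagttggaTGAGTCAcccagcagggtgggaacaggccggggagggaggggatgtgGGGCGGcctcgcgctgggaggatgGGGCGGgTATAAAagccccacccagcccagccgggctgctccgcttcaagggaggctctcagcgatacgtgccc
S100a6, chr3:90612644-90612943, plus strand: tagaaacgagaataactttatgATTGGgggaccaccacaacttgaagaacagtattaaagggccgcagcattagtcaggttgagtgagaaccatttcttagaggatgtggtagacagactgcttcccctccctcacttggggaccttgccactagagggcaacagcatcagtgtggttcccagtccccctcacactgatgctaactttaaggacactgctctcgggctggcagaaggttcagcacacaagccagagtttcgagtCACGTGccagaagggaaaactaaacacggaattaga
S100a11, chr3:93520246-93520545, plus strand: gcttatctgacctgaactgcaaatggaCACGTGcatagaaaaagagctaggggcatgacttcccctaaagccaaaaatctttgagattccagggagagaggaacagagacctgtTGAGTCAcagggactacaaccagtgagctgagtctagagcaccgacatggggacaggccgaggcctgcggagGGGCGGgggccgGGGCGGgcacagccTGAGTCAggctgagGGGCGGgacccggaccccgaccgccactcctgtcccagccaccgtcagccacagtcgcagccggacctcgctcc
The motifs were the TATA box (TATAAA), the CCAAT box (CCAAT), the GC box (GGGCGG), the AP-1 site (TGANTCA), the STAT site (TTCNNNGAA), the E-box (CACGTG), the TEAD site (GGAATG) and the PPAR direct repeat (AGGTCANAGGTCA). Matches of different motifs overlapped in 0 cases. Anxa1 had a TATA box 32 bases before the start and a TEAD site, and Anxa2 a TATA box, 3 GC boxes and 1 AP-1 site. S100a11 had 3 GC boxes, 2 AP-1 sites and 1 E-box, and S100a6 a CCAAT box and an E-box, so the 4 promoters shared no single motif. The AP-1 site was in 2 of the 7 members, Anxa2 and S100a11, against 7.81% of 32851 promoters. The PPAR direct repeat was in 0 of the 7 members and in 0.0396% of all promoters. S100a4, which was not called, had a TATA box as did Anxa1 and Anxa2, and 13.6% of all promoters had one. GC boxes were in 35.7%, CCAAT boxes in 37.4%, E-boxes in 7.15%, TEAD sites in 14.7% and STAT sites in 8.30% of all promoters.

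Of 23 listed partners and receptors 19 were measured, and limma called 0 in PpargΔ/Δ and 0 in AZIP kidneys, with 4 and 5 at an unadjusted p under 0.05 (20.4% of all genes in PpargΔ/Δ and 16.4% in AZIP kidneys). Ahnak, the giant scaffold that binds the annexin A2 tetramer, was at 0.11 ± 0.05 in PpargΔ/Δ (SE, limma adjusted p = 0.260) and 0.17 ± 0.05 in AZIP kidneys (SE, limma adjusted p = 0.112). Plat, the tissue plasminogen activator that docks there, was at 0.25 ± 0.11 (SE, limma adjusted p = 0.221) and 0.11 ± 0.11 (SE, limma adjusted p = 0.713). Cacybp, the binder of S100a6, was at -0.04 and -0.08, the receptor gene Ager, which several S100 proteins engage, at 0.16 and 0.15, and the plasminogen receptor gene Plgrkt at 0.07 and 0.05, with no call.

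Among 12 membrane repair genes, a process in which annexins also act, 1 rose in PpargΔ/Δ and 2 in AZIP kidneys. Cavin1, a coat protein of caveolae, was the 1 in PpargΔ/Δ kidneys, at 0.24 ± 0.06 (SE, limma adjusted p = 0.0491). It lost the call without any array but PpargΔ/Δ replicate 1 (limma adjusted p up to 0.160). Cavin1 also lost it with quantile normalization, with equal medians and with only the 2 groups (limma adjusted p = 0.0515, 0.0562 and 0.115). In AZIP kidneys the calpain subunit gene Capn2 rose by 0.36 ± 0.05 (SE, limma adjusted p = 0.00789), with each array left out in turn as well. Myof, a ferlin related to dysferlin, rose by 0.45 ± 0.11 (SE, limma adjusted p = 0.0467) and lost it without any array but AZIP replicate 1 (limma adjusted p up to 0.141), with only the 2 groups (limma adjusted p = 0.0709) and, narrowly, with the replicate block. The 2 AZIP calls were at 0.16 for Capn2 and 0.08 for Myof in PpargΔ/Δ kidneys, where neither passed.

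Marker lists of other cell types were read beside the members in PpargΔ/Δ kidneys. Of 8 basal urothelium markers 3 rose (Krt5, Krt14 and Krt15), and the list's mean log2 level was 6.47 to 6.75 on the PpargΔ/Δ arrays, against 6.03 to 6.15 on the control arrays. Of 7 superficial urothelium markers 2 fell (Upk1b and Grhl3, the last losing its call without any 1 of the 6 arrays) and 0 were called higher. Another 2, Krt20 (0.21) and Upk3b (0.20), had differences above 0 with no call. The list's mean level was 7.13 to 7.19 on the PpargΔ/Δ arrays, against 7.32 to 7.42 on the control arrays. Among 10 smooth muscle markers 5 rose, with a mean level of 8.10 to 8.27 in PpargΔ/Δ and 7.82 to 7.90 in control kidneys. Another 3 had differences below 0 with no call. Of these 2, Des (-0.30) and Lmod1 (-0.15), lay below control without overlap, as did 2623 of the 19938 genes. Among 10 collecting duct markers 5 rose, at 10.08 to 10.10 in PpargΔ/Δ and 9.81 to 9.95 in control kidneys. Of these 5 calls 1 was left without PpargΔ/Δ replicate 2 or 3 or control replicate 1 or 3, and 2 without control replicate 2. With the arrays shifted to the same median 3 of the 5 were left. Among 8 fibroblast markers 2 rose, at 9.58 to 9.61 in PpargΔ/Δ and 9.31 to 9.39 in control kidneys. Both calls, Col1a1 and Col1a2, were lost without any 1 control array or PpargΔ/Δ replicate 3, and 1 without PpargΔ/Δ replicate 2. Of 11 neutrophil markers, which include S100a8, S100a9 and Lcn2, 4 rose, at 6.02 to 6.34 in PpargΔ/Δ and 5.69 to 5.74 in control kidneys. Another 2, Elane (-0.12) and Mpo (-0.08), had differences below 0 with no call. The neutrophil marker Ly6g was at 0.03 (limma adjusted p = 0.918). With genes under percentile 25 left out, 2 of the 4 called markers remained to be tested, and these 2 passed. Lcn2 is also in the tubular injury list, and without it, a choice made after seeing the data, the neutrophil level was 5.69 to 5.92 in PpargΔ/Δ and 5.48 to 5.54 in control kidneys. Of 13 measured tubular injury genes 4 rose (Lcn2, Krt19, Vim and Timp1), at 8.76 to 9.13 in PpargΔ/Δ and 8.43 to 8.60 in control kidneys. Another 4 of the 13 had differences below 0 with no call, down to -0.27 for Tnfrsf12a. The injury gene Havcr1 was at 0.36 ± 0.35 (SE, limma adjusted p = 0.614). Timp1 lost its call without any array but PpargΔ/Δ replicate 2. Of 5 markers of mesothelium and parietal epithelium 2 rose, at 7.99 to 8.18 in PpargΔ/Δ and 7.84 to 7.87 in control kidneys. Both, Msln and Wt1, lost the call without control replicate 1 or 2, and 1 of them without PpargΔ/Δ replicate 2 or 3 or control replicate 3. Of 6 measured white fat markers 1 fell (Lipe) and all 6 were below 0, at 6.15 to 6.20 in PpargΔ/Δ and 6.35 to 6.50 in control kidneys. The 9 macrophage, 5 measured T cell and 7 endothelial markers had 0 calls by limma, with an unadjusted p under 0.05 for 2, 0 and 1 of them. Their median differences were 0.30, 0.00 and 0.03. Of the macrophage markers 8 of 9 were above 0, as were 46.8% of all genes. The macrophage level of 8.33 to 8.88 in PpargΔ/Δ overlapped the 8.14 to 8.40 of control kidneys. The part of these cells in the members' differences was not tested.

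In AZIP kidneys basal urothelium had 0 calls by limma (1 at an unadjusted p under 0.05), with a mean level of 6.09 to 6.17 on the AZIP arrays, against 6.01 to 6.12 on the FVB control arrays. Neutrophil markers had 0 calls by limma (2 at an unadjusted p under 0.05), at 5.71 to 5.89 in AZIP and 5.64 to 5.70 in FVB control kidneys. The levels overlapped between the groups for basal urothelium and, without Lcn2, for neutrophil markers, at 5.47 to 5.62 in AZIP and 5.45 to 5.53 in FVB control kidneys. Smooth muscle markers had 3 of 10 called higher and 4 below 0, at 7.98 to 8.14 in AZIP and 7.91 to 7.95 in FVB control kidneys. Fibroblast markers had 2 of 8 called higher and 2 below 0, at 9.46 to 9.81 in AZIP and 9.29 to 9.36 in FVB control kidneys. All 5 of these calls (Acta2, Tagln, Myocd, Col1a2 and Col3a1) were lost without any 1 FVB control array and with only the AZIP and FVB arrays in the model. The smooth muscle calls kept were 1 without AZIP replicate 2 and 0 without AZIP replicate 3, and the fibroblast calls 0 and 1. Collecting duct markers had 1 of 10 higher (Krt7), at 9.71 to 9.95 in AZIP and 9.67 to 9.70 in FVB control kidneys, and the call was lost without AZIP replicate 2 or FVB control replicate 1. Of the tubular injury genes 1 of 13 was called higher (Vim), at 8.52 to 8.99 in AZIP and 8.32 to 8.40 in FVB control kidneys. By limma 8 of the 13 had an unadjusted p under 0.05 (16.4% of all genes), against 5 in PpargΔ/Δ kidneys (20.4% of all genes). Their median difference was 0.37 in AZIP and 0.26 in PpargΔ/Δ kidneys, with 2 and 4 genes below 0. The difference between the lines passed for 0 of the 13. Superficial urothelium, macrophage, T cell, endothelial and white fat markers had 0 calls by limma, with 2, 2, 0, 0 and 1 at an unadjusted p under 0.05, and mesothelium and parietal epithelium had 1 of 5 higher (Wt1). Above 0 were 6 of 7 superficial urothelium and 8 of 9 macrophage markers, with medians of 0.14 and 0.18, as were 51.1% of all genes. All 6 white fat markers were below 0, at 6.30 to 6.42 in AZIP and 6.44 to 6.48 in FVB control kidneys. Vim and Wt1 lost the AZIP call without any 1 array but AZIP replicate 1, and with only the AZIP and FVB arrays. The part of these cells in the AZIP differences was not tested either.

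The genes whose pattern over the 12 arrays was most like that of a member were found by Pearson's r, which carries the differences between the 4 groups and is given as a description. For Anxa2 they were Col12a1 (0.98), Csrp1 (0.97), Tnc (0.97), Cnot6 (0.97) and Rhou (0.97), and among members Anxa3 (0.94) and S100a6 (0.94) came closest. For S100a6 they were Col12a1 (0.97), Cldn4 (0.97), Egr1 (0.97), Slc25a24 (0.95) and Rbbp7 (0.95). Anxa2 and S100a6 thus shared Col12a1, which encodes a fibril-associated collagen. For S100a10 the highest was Rab20 (0.87), then Dipk1a (0.87), Cenps (0.87), Hormad2 (0.87) and Hnrnpk (0.85), and its r with its partner Anxa2 was 0.51. For Anxa4 they were Ckmt1 (0.95), Ptpn18 (0.93), Cyp2s1 (0.93), Cdh1 (0.90) and Rgs2 (0.90), and among members Anxa6 (0.83).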

How the data were processed

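Gene expression was measured in 12 whole-kidney RNA pools. The submitters' processing notes name RMA and Affymetrix Expression Console for the deposited log2 values, which the authors supplied as one table. RMA subtracts background, equalises the arrays and summarises each probe set, which tends to compress differences of dim genes. Neither versions nor settings are stated, and arrays carry no depth: their number limits the precision.

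Of 35556 probe sets 21789 had 1 symbol in the platform table (annotation of 2016), 1621 several and 12146 none. Symbols were updated by Entrez number for 21698, which gave 19938 genes. A limma model (version 3.58.1, R 4.3.3) took the mean of each group from all 12 arrays, leaving 8 residual degrees of freedom, with the Benjamini-Hochberg adjustment of p-values spanning all genes. The calculation was tested on simulated data. Named genes were the 10 members, called genes of the lists, their main partners and, for 4 members, the 5 genes most alike. Members and lists were chosen with earlier results of these data known. Nothing says that the pools of a group come from separate litters, so p-values measure the spread between pools. Same-numbered arrays of the FVB and mixed controls deviated together (r of 0.25, 0.18 and 0.13), and the main model did not pair them. Alternatives were another normalization, a filter on dim genes, probe set means, fewer groups, another variance model, the replicate number as a block, and single arrays left out.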

Additional observations from a re-analysis of the deposited data

How the results depend on the processing

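Over the 10 members and 4 comparisons, 258 of 270 values kept direction and side of the threshold under other settings, 3 fell below it, 7 passed newly and 2 changed sign. With single arrays left out these were 259, 28, 1 and 12 of 300. The sign changes were all in differences that did not pass. With arrays left out, Anxa4 ran from -0.0002 to 0.064 in PpargΔ/Δ kidneys. The difference between the lines ran from -0.072 to 0.14 for Anxa1 (-0.0087 with quantile normalization), from -0.011 to 0.12 for Anxa5 and from -0.013 to 0.097 for Anxa6. FVB minus mixed control ran from -0.072 to 0.016 for Anxa2, from -0.053 to 0.091 for S100a4 and from -0.027 to 0.044 for S100a10 (-0.044 with quantile normalization). The cause was not tested.

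Members called numbered 2 to 4 in PpargΔ/Δ and 0 to 3 in AZIP kidneys with an array left out, and 1 in AZIP kidneys with only the groups compared. In FVB against mixed controls they were 2 with quantile normalization or without dim genes, 3 with only these groups and 3 with trend and robust variance. Genes called with an array left out numbered 330 to 1084 in PpargΔ/Δ kidneys, 62 to 569 in AZIP kidneys, 0 to 9 for the difference between the lines and 852 to 947 between the controls. With only the groups compared they were 607 in PpargΔ/Δ and 162 in AZIP kidneys. Trend and robust variance gave 741 in AZIP kidneys and 7 for the difference between the lines. Fewer arrays leave fewer residual degrees of freedom. Anxa5 passed in PpargΔ/Δ kidneys with trend and robust variance (limma adjusted p = 0.0482).

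With the replicate number as a block (no label says that it marks a shared litter or day), 4 members were called in PpargΔ/Δ kidneys, since S100a11 missed the threshold (limma adjusted p = 0.0617), 3 in AZIP kidneys, 0 for the difference between the lines, where 1 gene was called in all, and 1 between the controls. The block made 1102 calls in PpargΔ/Δ and 694 in AZIP kidneys. Same-numbered arrays correlated in their deviations from group means at 0.18, 0.18 and 0.01 in the PpargΔ/Δ comparison and at -0.04, -0.10 and -0.01 in the AZIP comparison, so the numbers were not taken as pairs there. Between the controls all 3 correlations were over 0.1 (0.25, 0.18 and 0.13). The results given for FVB against mixed controls come from the model without the block. With the block 1489 genes were called there, and no member's call changed.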
